A study of Mus musculus with 12 samples.

Results

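The 6 libraries described here compare 2 myeloid cell types of the mouse lung, interstitial macrophages (IM) and nonclassical monocytes (NCM), in animals whose Hif1a gene was deleted. They were chosen by their titles, as the 3 IM libraries and the 3 NCM libraries from Cre-positive animals, out of 12 libraries in the series. They are called IM649, IM650, IM661, NCM649, NCM650 and NCM661, with RM in the titles given as NCM here. The deleted animals are labelled Hif1α Δ/Δ and carry Cre recombinase driven by Cx3cr1, so the deletion was aimed at cells that express this chemokine receptor, and the remaining 6 libraries come from Cre-negative control animals with floxed Hif1a and hold 3 IM and 3 NCM samples. All animals were C57Bl/6, and all, controls included, were kept in hypoxia for 3 weeks with a weekly dose of SU5416, an inhibitor of VEGF receptors that is combined with hypoxia to produce pulmonary hypertension in rodents. No unexposed animals entered the comparison, and the labels state no ages. About 250 cells were sorted per library, and total RNA was made into stranded libraries with a kit for very small inputs.

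Interstitial macrophages live in the lung tissue around airways and vessels, where they take up debris, present antigen and release cytokines. Nonclassical monocytes stay mainly inside the vessels and crawl along the endothelium. Both belong to the lineage that depends on the transcription factor PU.1 and on signals through the CSF1 receptor, and both can carry Cx3cr1. Hif1a encodes the oxygen-regulated subunit of HIF-1, a transcription factor that switches on glycolytic and other genes when oxygen is low.

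Library depth and purity set limits on the comparison. Gene counts totalled 7432617, 7039631 and 9054232 in IM and 5332600, 6109857 and 11169706 in NCM, in the order of the names above, which is kept for all values below. Levels are given as CPM, gene counts scaled to a common library size with TMM factors. Reads that counting assigned to no gene feature are called reads outside exons, or non-exonic, here. Of these plus gene counts, they made up 65.2% ± 5.48 (SD, n = 3) in IM and 66.6% ± 9.91 (SD, n = 3) in NCM (exact two-sided permutation p = 0.8, where 3 against 3 cannot go below 0.1). They can include exonic reads on the other strand, since the strand setting of counting is not stated. NCM661 stood apart from the other 2 NCM libraries. It had counts for 17179 genes, against 10526 and 11933, and lay on the first principal component (51.8% of the variance) at -48.4, nearer to the IM libraries (-92.95 to -86.9) than to NCM649 (231) and NCM650 (84.5). The IM libraries had counts for 15247 to 16250 genes. The summed level of NCM markers in NCM661 was 7082 CPM, against 14059 and 15717 CPM in the other NCM libraries. Its summed level of IM markers was also the lowest of the NCM libraries, at 1701 CPM against 2334 and 2329 CPM. Its summed level of 20 endothelial markers was 11269 CPM, against 4985 and 4385 CPM in the other NCM and 2705, 4189 and 1231 CPM in IM. In such pools, fewer cells of a type and less RNA per cell cannot be told apart. IM libraries were sequenced in lanes 5 and 7 and NCM libraries in lanes 6 and 8, per the names of the deposited files, so lane and cell type cannot be told apart either.

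**Figure D1:**
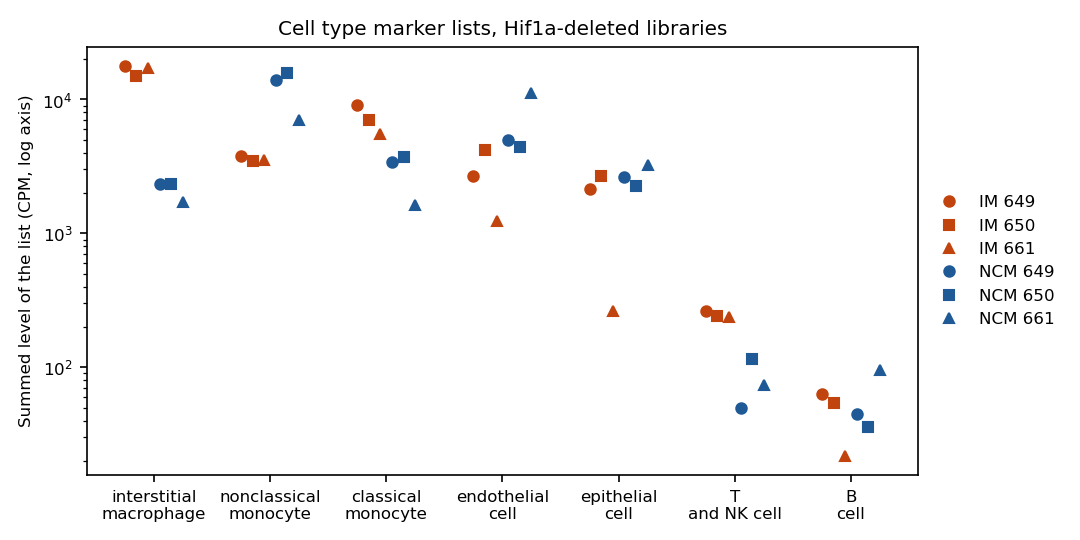
Summed level (CPM, log axis) of 7 marker lists in each of the 6 Hif1a-deleted libraries, with IM in orange and NCM in blue and 1 symbol per library number. The interstitial macrophage sum is higher in all 3 IM libraries and the nonclassical monocyte sum in all 3 NCM libraries, with NCM661 the lowest of the NCM at 7082 CPM and the highest in endothelial markers at 11269 CPM.

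Hif1a itself was counted at overlapping levels in both cell types, with 192, 204 and 200.01 CPM in IM and 154, 212 and 150.3 CPM in NCM (log2 fold change 0.21, edgeR adjusted p = 0.744). A floxed gene can keep its count when some exons remain, so these values do not measure the deletion, and counts by exon were not used here. Cx3cr1, the gene that drives Cre, had 129, 174 and 295 CPM in IM and 198, 123 and 46.9 CPM in NCM, which also overlap (log2 fold change 0.70, edgeR adjusted p = 0.484).

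Of 14254 genes tested, 652 passed an adjusted p of 0.05 in edgeR's quasi-likelihood fit of all 12 libraries (4.57%), with 459 higher in IM (3.22%) and 193 higher in NCM (1.35%). DESeq2 called 782 and 446, and edgeR on the 6 deleted libraries alone 179 and 49. Without NCM661 the directions had 1217 and 492 genes. The 3 libraries of a type lay entirely above those of the other for 2276 genes in IM (16.0%) and for 891 genes in NCM (6.25%), and 636 of the 652 genes that passed showed no overlap. Calls per fit ranged from 346 without IM661 to 1709 without NCM661, and the direction of all 652 was kept in each of the 12 fits that left out 1 library. In what follows, parentheses after a fold or a count give values from those 12 fits, for a fold its lowest and highest, wherever either, or for a count any of them, lies more than 1.5 times away. Of 137 genes named by the selection rules that passed, 87 kept the call without each library in turn, and 62 of these also kept it in the other fits that were tried. The labels do not say whether libraries of a group come from separate animals, so the p-values measure the spread between these samples.

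The genes with the largest folds among those well expressed and free of overlap were chosen by one rule in each direction. In IM they were Igf1, Slco2b1, C3ar1, Cxcl16, C1qa, C1qc, Il1rn, F13a1, Stab1, Vcam1, Gas7 and Slamf7. Igf1, a growth factor, had 299, 312 and 215 CPM in IM and 0, 3.38 and 4.88 CPM in NCM and was 95.03-fold (65.4 without NCM649 to 157 without NCM661) higher in IM (log2 fold change 6.57 ± 0.92 (SE), edgeR adjusted p = 7.71e-04). Slco2b1, an organic anion transporter, had 240.3, 289 and 377 CPM in IM and 0, 1.03 and 8.34 CPM in NCM, a difference of 89.05-fold (61.6 without NCM649 to 549 without NCM661) (edgeR adjusted p = 0.00117). Cxcl16, a chemokine that also exists as a membrane-bound form, had 509.5, 444 and 1077 CPM in IM and 9.57, 14.3 and 22.9 CPM in NCM and was 43.1-fold (28.3 without IM661 to 56.7 without NCM661) higher (log2 fold change 5.43 ± 0.46 (SE), edgeR adjusted p = 1.87e-05). Every IM library exceeded every NCM library for these genes, and NCM649 held no count of Igf1 or Slco2b1. Il1rn, the secreted antagonist of the interleukin-1 receptor, was 33.8-fold higher (log2 fold change 5.08, edgeR adjusted p = 0.00151). Gas7 and Slamf7, a receptor of the SLAM family, were 30.3-fold and 29.1-fold (21.7 without NCM649 to 59.03 without NCM661) higher (edgeR adjusted p = 6.60e-05 and 1.64e-04). F13a1 and Vcam1 also passed, but F13a1 lost its call without control IM648, control IM659, control IM660, IM649, IM650, IM661, NCM650 or NCM661 (edgeR adjusted p between 0.0541 and 0.112) and Vcam1 without control IM648, control IM659, control IM660, IM649, IM650, IM661, NCM650 or NCM661 (edgeR adjusted p between 0.0515 and 0.124).

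In NCM the corresponding genes included Emr4, Treml4, Mdm1, Cyfip2, Setbp1, Itgal, Dnahc12, Ccdc88c, Rasgrp2, Spn and Cd244. Emr4, an adhesion G-protein-coupled receptor related to F4/80, had 12.5, 4.34 and 1.08 CPM in IM and 572, 752 and 160.4 CPM in NCM and was 81.9-fold (60.8 without NCM650 to 181 without IM649) higher in NCM (log2 fold change -6.36 ± 0.87 (SE), edgeR adjusted p = 6.62e-04). Treml4, an innate immune receptor of the TREM family, had 6.33, 2.89 and 1.89 CPM in IM and 207, 325 and 93.6 CPM in NCM, a difference of 55.8-fold (40.3 without NCM650 to 86.3 without IM649) (log2 fold change -5.80 ± 0.64 (SE), edgeR adjusted p = 1.04e-04). NCM661 held the lowest NCM level of both, yet remained above all IM libraries. Cyfip2, a subunit of the actin-regulating WAVE complex, was 19.5-fold higher (log2 fold change -4.29, edgeR adjusted p = 6.60e-05). Rasgrp2, an activator of the integrin switch Rap1, was 13.2-fold higher (edgeR adjusted p = 0.00174). The SLAM-family receptor Cd244 was 11.9-fold higher (edgeR adjusted p = 8.62e-04). The calls of all these NCM genes held without each library in turn.

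**Figure D2:**
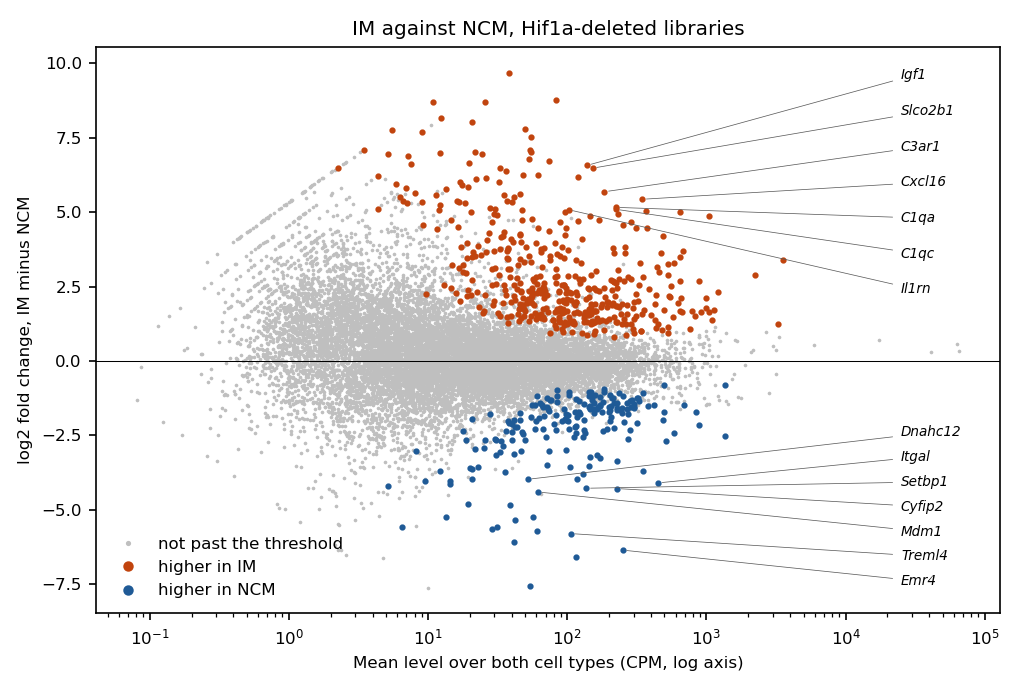
Log2 fold change of IM minus NCM against the mean level over both cell types (CPM, log axis) for 14111 genes with counts in both groups, with the 459 genes higher in IM in orange and the 193 higher in NCM in blue where drawn. Among genes that averaged a log2 CPM of 4 or more and showed no overlap, the 7 named ones with the largest folds in each direction are labelled, from Igf1 at 6.57 to Emr4 at -6.36.

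Most known IM markers were higher in the libraries labelled IM. Of 37 tested IM markers, 26 were higher in IM and 0 higher in NCM, with a list median of 3.41 (log2) beside 0.14 for all genes. List counts here and below stand beside 3.22% of all genes tested called higher in IM and 1.35% called higher in NCM. Members and lists were chosen with earlier results of these data known, so these counts are descriptions and not a test of cell identity. The 3 chains of C1q, which starts the classical complement pathway, all passed. C1qc had 382, 367 and 557 CPM in IM and 7.75, 15.6 and 14.7 CPM in NCM and was 34.2-fold higher (log2 fold change 5.09 ± 0.75 (SE), edgeR adjusted p = 0.00114). C1qa and C1qb were 35.7-fold (25.2 without NCM649 to 63.5 without NCM650) and 82.4-fold (57.9 without IM661 to 295 without NCM661) higher (edgeR adjusted p = 0.00352 and 0.00651). Mrc1, the mannose receptor CD206 (chromosome 2, bases 14229414 to 14332023, GRCm38), had 2494, 2089 and 1434 CPM in IM and 78.4, 54.4 and 74.4 CPM in NCM and was 29.05-fold higher (log2 fold change 4.86 ± 0.50 (SE), edgeR adjusted p = 6.60e-05). Stab1, a scavenger receptor, had 1087, 968 and 1723 CPM in IM and 57.1, 5.58 and 55.5 CPM in NCM (log2 fold change 5.00, edgeR adjusted p = 9.99e-04). For Mrc1 and Stab1 the lowest IM library was more than 10 times the highest NCM library. Mertk, which binds apoptotic cells, and Emr1, the F4/80 antigen, were 6.28-fold and 4.03-fold higher (edgeR adjusted p = 0.00126 and 9.99e-04). Ms4a7 had 105, 84.2 and 138 CPM in IM and 0, 0 and 1.42 CPM in NCM (log2 fold change 7.54, edgeR adjusted p = 7.03e-05, a fold of 186, 131 without NCM650 to 7868 without NCM661). Without NCM661 no NCM count of Ms4a7 remained, so 7868 is a fitted value against 0 and does not measure a size. Ccl12, a monocyte-attracting chemokine, had 36.9, 18.2 and 30.3 CPM in IM and no count in any NCM library, so it was at least 229-fold higher against a floor of 3 counts over the NCM group.

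Some other IM markers did not pass. Lyve1, a hyaluronan receptor of lymphatic endothelium and of a perivascular macrophage subset, had 261, 257 and 68.3 CPM in IM and 220.3, 192 and 367 CPM in NCM (log2 fold change -0.41, edgeR adjusted p = 0.872), and its highest level was in NCM661. Cd163, the haemoglobin scavenger receptor, had 669.8, 497 and 193 CPM in IM and 43.7, 90.1 and 9.14 CPM in NCM, with no overlap but a wide spread (log2 fold change 3.25, edgeR adjusted p = 0.217). Folr2, a folate receptor of the same subset, had 28.7, 24.9 and 5.55 CPM in IM and 17.7, 0 and 0.621 CPM in NCM (log2 fold change 1.71, edgeR adjusted p = 0.6796).

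Of 33 tested NCM markers, 22 were higher in NCM, 2 (1 without control IM648, control IM659, control IM660, IM649, IM650, IM661, control NCM657, NCM649 or NCM661) were higher in IM and 9 did not pass, with a median of -2.33. Itgal, the alpha chain of the integrin LFA-1 used for crawling on endothelium, had 53.1, 46.6 and 49.3 CPM in IM and 927, 1249 and 375 CPM in NCM and was 17.1-fold higher in NCM (log2 fold change -4.10 ± 0.41 (SE), edgeR adjusted p = 4.99e-05). Spn, the sialomucin CD43, had 32.4, 31.6 and 87.3 CPM in IM and 777, 848 and 332 CPM in NCM (log2 fold change -3.69 ± 0.47 (SE), edgeR adjusted p = 2.67e-04, a fold of 12.9, 10.9 without IM650 to 22.0005 without IM661). Ace, angiotensin-converting enzyme (chromosome 11, bases 105967948 to 105989964, GRCm38), had 403, 628 and 187 CPM in IM and 2374, 2609 and 2023 CPM in NCM and was 5.75-fold higher (log2 fold change -2.52 ± 0.41 (SE), edgeR adjusted p = 0.00175). The groups did not overlap for these genes, and NCM661 is the lowest NCM library for each. Ace is also made by lung endothelium, whose summed markers were higher in every NCM library than in any IM library. The part of endothelial cells in the Ace difference was not tested. Cd300e, an activating receptor of monocytes, had 0.974, 0.526 and 0.135 CPM in IM and 87.6, 178 and 58.7 CPM in NCM and was 190.2-fold (129 without NCM650 to 311 without IM649) higher (edgeR adjusted p = 6.60e-05). S1pr5, the sphingosine-1-phosphate receptor that nonclassical monocytes need to leave the bone marrow, had 0, 0 and 3.65 CPM in IM and 95.9, 106 and 42.2 CPM in NCM (log2 fold change -6.07, edgeR adjusted p = 0.00377, a fold of 67.2, 44.3 without IM649 to 6366 without IM661). Without IM661 no IM count of S1pr5 remained, so 6366 is a fitted value against 0 and does not measure a size. Eno3, the muscle form of enolase, was 28.1-fold (20.1 without IM650 to 88.6 without IM661) higher in NCM (edgeR adjusted p = 9.99e-04).

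Several well-known NCM genes did not pass or lay in the other direction. Nr4a1, the transcription factor on which these monocytes depend, had 624, 386 and 972 CPM in IM and 1357, 1376 and 541 CPM in NCM (log2 fold change -0.72, edgeR adjusted p = 0.367). The groups overlapped because NCM661 lay between IM650 and IM649. Cebpb had 323, 196 and 382 CPM in IM and 328, 329 and 161 CPM in NCM (log2 fold change 0.14, edgeR adjusted p = 0.888), and Ear2 184, 82.9 and 50.5 CPM in IM and 125, 118 and 50.7 CPM in NCM (log2 fold change 0.11, edgeR adjusted p = 0.951). Sema4a, a semaphorin listed as an NCM marker, went the other way and was 9.38-fold higher in IM (log2 fold change 3.23, edgeR adjusted p = 0.00122). Bcl2a1d, which has near-identical copies that counting may split, was also higher in IM but lost its call without control IM648, control IM659, control IM660, IM649, IM650, IM661, control NCM657, NCM649 or NCM661 (edgeR adjusted p between 0.0525 and 0.264). Pglyrp1, a peptidoglycan-binding protein, was 47.7-fold (34.7 without NCM649 to 158 without IM649) higher in NCM and lost its call without IM650 or IM661 (edgeR adjusted p between 0.0803 and 0.0843). Tgfbr3, a co-receptor for TGF-beta, was 3.43-fold higher and lost its call without IM649, IM661, control NCM659 or NCM649 (edgeR adjusted p between 0.0523 and 0.141). Pou2f2, a transcription factor also called Oct-2, had 26.04, 26.3 and 66.3 CPM in IM and 197, 308 and 55.1 CPM in NCM, and its call was lost without IM649, IM650, NCM649 or NCM650 (edgeR adjusted p between 0.0694 and 0.121). In it NCM661 lay below IM661, so the groups overlapped.

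**Figure D3:**
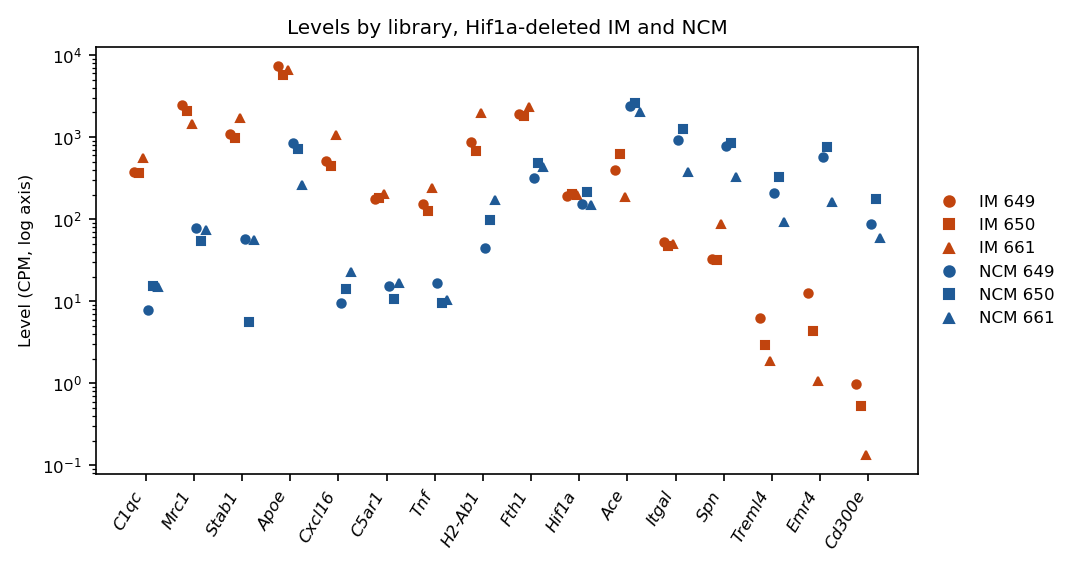
Level (CPM, log axis) of 16 genes in each Hif1a-deleted library, IM in orange and NCM in blue, with 1 symbol per library number. Genes from C1qc to Fth1 at the left lie higher in all IM libraries. Hif1a overlaps. Markers of NCM at the right lie higher in all NCM libraries, with NCM661 (blue triangle) the lowest NCM library for Ace, Itgal, Spn, Treml4, Emr4 and Cd300e. The genes drawn are a selection, and markers that overlapped, such as Lyve1, Folr2, Nr4a1, Cebpb and Ear2, are not shown.

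The promoters of Mrc1 and Ace are shown because Mrc1 and Ace are markers with high levels in IM and NCM, respectively, and both promoters hold the core motif of PU.1, a factor of both cell types. Sequences are the 250 bases before the RefSeq start site (GRCm38.p6, plus strand, 5′ to 3′), and capitals mark GAGGAAG or its reverse complement CTTCCTC.
Mrc1, chr2:14229164-14229413: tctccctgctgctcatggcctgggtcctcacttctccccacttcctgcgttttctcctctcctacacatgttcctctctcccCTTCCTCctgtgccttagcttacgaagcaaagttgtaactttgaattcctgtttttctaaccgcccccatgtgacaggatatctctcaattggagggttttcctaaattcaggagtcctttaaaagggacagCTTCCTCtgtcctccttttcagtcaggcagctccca
Ace, chr11:105967698-105967947: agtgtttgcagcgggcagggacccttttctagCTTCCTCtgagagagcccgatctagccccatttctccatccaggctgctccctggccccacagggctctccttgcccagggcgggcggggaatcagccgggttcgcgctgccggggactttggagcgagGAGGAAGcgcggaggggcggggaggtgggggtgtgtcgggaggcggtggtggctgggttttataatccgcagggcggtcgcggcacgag
The Mrc1 window has 2 matches, starting 168 and 36 bases before the start site, and the Ace window has 2, at 218 and 89 bases. The second RefSeq start of Ace, further downstream, has none in its window. Among 12357 promoters of 9727 tested genes found in the RefSeq table, 11.2% hold this motif on either strand, beside 15.5% of the promoters of genes higher in IM and 15.0% of those of genes higher in NCM. The octamer ATGCAAAT was in 1.30% of all promoters, 3.48% of IM and 1.73% of NCM promoters. The MAF half-site TGCTGAC was in 3.16%, 2.78% and 5.78%, and the NR4A site AAAGGTCA in 0.947%, 1.86% and 0.578%, in the same order. These shares rest on few promoters. Among 431 IM and 173 NCM promoters, the octamer was in 15 and 3, the MAF half-site in 12 and 10 and the NR4A site in 8 and 1. The promoters belong to 329 and 126 genes, so some genes count more than once, and the differences were not tested. Each motif was searched on both strands, and the matches are a description of letters, not of binding. Sfpi1, which encodes PU.1, had 84.2, 71.4 and 136 CPM in IM and 118, 153 and 42.6 CPM in NCM (log2 fold change -0.10, edgeR adjusted p = 0.9397).

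Markers of other cells were read as a check on the sort. None of the 20 endothelial, 17 epithelial, 17 fibroblast and smooth muscle, 16 dendritic cell, 12 B cell, 7 neutrophil or 7 erythroid and platelet markers tested passed in either direction. In the fits that left out 1 library, dendritic cell markers counted 1 higher in IM without control NCM648 or NCM661 and 1 higher in NCM without control NCM648 or NCM650 and neutrophil markers 1 higher in IM without NCM649, and the other 5 of these lists stayed at 0. All 20 endothelial and all 17 epithelial markers had a fold change below 0, with medians of -1.33 and -0.39, so their levels leaned towards NCM. Cdh5, the cadherin of endothelial junctions, had 511, 858 and 212 CPM in IM and 1279, 933 and 2167 CPM in NCM (log2 fold change -1.47, edgeR adjusted p = 0.203). It was thus counted in all 6 libraries. Summed epithelial markers were 2154, 2676 and 263 CPM in IM and 2614, 2269 and 3216 CPM in NCM. Scgb1a1, the club cell secretory protein, had 414, 716 and 47.6 CPM in IM and 1444, 354 and 1199 CPM in NCM. T and NK cell markers summed to 263, 241 and 236 CPM in IM and 49.7, 116 and 74.4 CPM in NCM, with 2 (0 without IM661, 1 without control IM648, control IM659, control IM660, IM649, IM650, control NCM659, NCM649 or NCM650) of 18 higher in IM and 0 (1 without NCM649 or NCM661) in NCM. Cd4 and Il7r, which macrophages can also express, were higher in IM, with Cd4 losing its call without control IM648, control IM659, control IM660, IM649, IM650, IM661, control NCM659, NCM649 or NCM650 (edgeR adjusted p between 0.0541 and 0.146) and Il7r without IM661 (edgeR adjusted p = 0.0719), while Cd3e, a component of the T cell receptor complex, had 1.22, 1.71 and 0.271 CPM in IM and 0, 0.441 and 4.97 CPM in NCM. B cell markers summed to at most 95.4 CPM in any of the 6 libraries. The part of these cells in the results was not tested.

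Classical monocyte markers split, with 4 (2 without control IM659, IM649 or IM661) of 18 higher in IM and 2 (1 without IM661) higher in NCM. Chi3l3, a secreted chitinase-like protein, had 1022, 585 and 355 CPM in IM and 95.2, 163 and 106 CPM in NCM and was 5.396-fold higher in IM (log2 fold change 2.43, edgeR adjusted p = 0.00129). The chemokine Ccl9 was 5.25-fold higher in IM (edgeR adjusted p = 3.23e-04), and Ifitm6 was 16.5-fold (10.5 without NCM649 to 25.5 without IM661) higher in NCM (edgeR adjusted p = 0.00805). Ly6c2, the antigen that defines classical monocytes, had 1.095, 1.05 and 0.135 CPM in IM and 30.5, 2.498 and 1.598 CPM in NCM (log2 fold change -3.89, edgeR adjusted p = 0.397). Ccr2, their chemokine receptor, had 55.2, 61.3 and 126 CPM in IM and 0.165, 54.8 and 13.4 CPM in NCM (log2 fold change 1.83, edgeR adjusted p = 0.408). Of 15 alveolar macrophage markers, 1 (0 without IM649 or NCM650, 2 without control NCM648 or control NCM659, 6 without NCM661), Atp6v0d2, was higher in IM and 1 (0 without IM650, IM661, NCM649 or NCM650), Pparg, in NCM. In all, 14 had a fold change above 0 (median 2.13) and 9 showed no overlap with IM above, beside 16.0% of all genes, so their levels leaned towards IM. Their summed level was 1345, 814 and 713 CPM in IM and 809.9, 651 and 482 CPM in NCM, and their part in the results was not tested. Pparg, a lipid-sensing nuclear receptor, had 54.6, 20.7 and 24.6 CPM in IM and 475, 374 and 35.6 CPM in NCM, and its call was lost without IM650, IM661, NCM649 or NCM650 (edgeR adjusted p between 0.0547 and 0.0777). Atp6v0d2 lost its call without IM649 or NCM650 (edgeR adjusted p between 0.05399 and 0.07097). Siglec5, which the files use for Siglec-F, had 57.4, 17.4 and 13.4 CPM in IM and 0, 13.2 and 3.82 CPM in NCM.

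MHC class II molecules present peptides from engulfed material to helper T cells. Of 15 members, 10 were higher in IM and 0 in NCM, with a median of 2.53. The chains that bind peptide were H2-Aa with 741, 769 and 1662 CPM in IM and 75.4, 75.8 and 175 CPM in NCM, H2-Ab1 with 883, 684 and 1965 CPM in IM and 45.2, 99.2 and 171 CPM in NCM and H2-Eb1 with 912, 784 and 2114 CPM in IM and 63.4, 105 and 127 CPM in NCM. They were 9.71-fold (6.45 without IM661 to 14.004 without NCM661), 11.2-fold (6.95 without IM661 to 16.3 without NCM661) and 12.9-fold (8.02 without IM661 to 15.4 without IM650) higher (edgeR adjusted p = 0.00161, 0.00302 and 0.00117). Cd74, the invariant chain that guards the peptide groove, had 3061, 2879 and 5807 CPM in IM and 464, 524 and 592 CPM in NCM (log2 fold change 2.89 ± 0.34 (SE), edgeR adjusted p = 1.61e-04). IM661 held the highest level of these 4 genes, and no IM library overlapped with NCM. Ciita, the master regulator of the class II genes, had 129.6, 186 and 360.1 CPM in IM and 17.7, 17.9 and 64.3 CPM in NCM (log2 fold change 2.75, edgeR adjusted p = 0.0112, a fold of 6.72, 4.38 without IM661 to 12.7 without NCM661), but lost its call without IM661, NCM649 or NCM650 (edgeR adjusted p between 0.0627 and 0.06996). Cd80, a co-stimulatory ligand, did not pass, with 34.7, 35.7 and 31.4 CPM in IM and 25.1, 74.5 and 9.497 CPM in NCM (log2 fold change -0.10, edgeR adjusted p = 0.965).

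Genes of uptake and digestion that passed were mostly higher in IM. Of 36 lysosomal proteins, 19 (12 without IM661) were higher in IM and 0 in NCM, and 34 had a fold change above 0 (median 1.35). Cd63, a tetraspanin of late endosomes, had 73.9, 84.2 and 109 CPM in IM and 6.27, 9.84 and 10.3 CPM in NCM and was 10.1-fold higher (log2 fold change 3.33 ± 0.36 (SE), edgeR adjusted p = 8.47e-05). Hexa, a subunit of the enzyme that cleaves GM2 ganglioside, had 222, 156 and 153 CPM in IM and 10.6, 28.8 and 33.9 CPM in NCM and was 7.22-fold higher (log2 fold change 2.85, edgeR adjusted p = 5.31e-04). Grn and the proton pump subunit Atp6v1a were 3.49-fold and 3.35-fold higher (edgeR adjusted p = 0.00857 and 0.00161). The protease Ctsb had 1442, 1233 and 1153 CPM in IM and 984, 795 and 346 CPM in NCM, with no overlap, and did not pass (log2 fold change 0.85, edgeR adjusted p = 0.164). Scavenger and efferocytosis receptors counted 10 higher in IM and 2 (1 without control IM648, control IM660, IM649, IM661, control NCM657, control NCM659, NCM650 or NCM661) in NCM among 29. Besides Mrc1, Stab1 and Mertk, they included Trem2, a receptor for lipids, with 23.9, 21.97 and 48.9 CPM in IM and 0, 1.18 and 0.976 CPM in NCM (log2 fold change 5.38, edgeR adjusted p = 0.00188). Mgl2, a C-type lectin, had 86.04, 94.7 and 188 CPM in IM and 0, 0 and 4.26 CPM in NCM and lost its call without IM661 (edgeR adjusted p = 0.06103). The 2 exceptions were the lipid scavengers Cd36, with 472, 445 and 172 CPM in IM and 859.6, 1315 and 878 CPM in NCM, and Scarb1, with 46.2, 71.3 and 37.3 CPM in IM and 107, 88.5 and 154 CPM in NCM. Endothelial cells carry both of these, and the endothelial marker sums given above were higher in NCM. Among NCM, Cd36 was highest in NCM650 and Scarb1 in NCM661, the libraries with the lowest and the highest of these sums. The part of endothelial cells in these calls was not tested. The calls of Cd36 and Scarb1 were lost without NCM650 (edgeR adjusted p = 0.0832) and without control IM648, control IM660, IM649, IM661, control NCM657, control NCM659 or NCM661 (edgeR adjusted p between 0.0565 and 0.168), respectively.

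Genes of lipid handling passed in both directions. Apoe, a lipid carrier secreted by macrophages, had 7287, 5676 and 6507 CPM in IM and 853, 721 and 265 CPM in NCM and was 10.6-fold higher in IM (log2 fold change 3.41 ± 0.36 (SE), edgeR adjusted p = 6.60e-05). Abca1, which exports cholesterol to such carriers, had 1185, 1196 and 986 CPM in IM and 193, 213 and 119 CPM in NCM and was 6.42-fold higher (log2 fold change 2.68 ± 0.26 (SE), edgeR adjusted p = 4.99e-05). Neither gene overlapped between the groups. Plin2, which coats lipid droplets, was 2.49-fold higher in IM and lost its call without IM649 (edgeR adjusted p = 0.0771). Fabp4, a fatty acid carrier, had 6.69, 3.82 and 5.01 CPM in IM and 45.7, 40.7 and 11.1 CPM in NCM and was higher in NCM, but not without IM650 or IM661 (edgeR adjusted p between 0.0654 and 0.0789). Abcg1, a partner of Abca1, overlapped at 318, 209.6 and 177 CPM in IM and 262, 115 and 116 CPM in NCM (log2 fold change 0.51, edgeR adjusted p = 0.551). In all, 5 of 23 lipid genes were higher in IM and 4 (1 without IM661, 2 without IM650 or NCM650) in NCM.

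Receptors for antibody and complement fragments carry opsonised particles into phagocytes. Of 7 Fc receptor genes, 5 were higher in IM and 0 (1 without IM649, control NCM648, control NCM659 or NCM661) in NCM. Fcgr1, the high-affinity receptor CD64, had 31.6, 37.2 and 49.7 CPM in IM and 0, 0.441 and 2.93 CPM in NCM and was 32.2-fold (22.1 without NCM649 to 162 without NCM661) higher (log2 fold change 5.01, edgeR adjusted p = 0.00216). Fcgr3, an activating receptor, had 499, 384 and 447 CPM in IM and 43.9, 116 and 46.1 CPM in NCM (log2 fold change 2.69, edgeR adjusted p = 2.39e-04, a fold of 6.46, 5.46 without NCM649 to 9.83 without NCM650). Fcgr2b, the inhibitory receptor, had 401, 377 and 385 CPM in IM and 83.3, 71.9 and 33.2 CPM in NCM (log2 fold change 2.63, edgeR adjusted p = 2.51e-04). All 3 were thus higher in every IM library, whereas Fcgr4, known as a marker of nonclassical monocytes, had 14.5, 6.58 and 6.77 CPM in IM and 35.5, 31.6 and 23.96 CPM in NCM and lay in the opposite direction without passing (log2 fold change -1.71, edgeR adjusted p = 0.0538). Fcer1g, the signalling chain that the activating receptors share, overlapped at 108, 92.5 and 92.3 CPM in IM and 79.03, 126 and 43.2 CPM in NCM (log2 fold change 0.24, edgeR adjusted p = 0.814). Complement genes counted 7 of 21 higher in IM and 0 in NCM. C5ar1, the receptor for the attractant C5a (chromosome 7, bases 16246743 to 16259540, GRCm38), had 177, 183 and 206 CPM in IM and 15.3, 10.6 and 16.9 CPM in NCM and was 13.2-fold higher (log2 fold change 3.72 ± 0.27 (SE), edgeR adjusted p = 6.73e-06). C3ar1, its relative for C3a, had 333, 368 and 390.1 CPM in IM and 0, 5.29 and 15.2 CPM in NCM and lost its call without NCM650 (edgeR adjusted p = 0.0548). Complement C3 itself overlapped at 256, 236 and 193 CPM in IM and 113, 152 and 233 CPM in NCM (log2 fold change 0.46, edgeR adjusted p = 0.529).

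Chemokines recruit other leukocytes to the tissue. Of 22 chemokines, 9 were higher in IM and 0 in NCM (median 3.67, the highest of the functional lists), and 15 showed no overlap with IM above, beside 16.0% of all genes. Ccl2, the main attractant of Ccr2-bearing monocytes, had 189.6, 166 and 204 CPM in IM and 18.8, 4.26 and 2.84 CPM in NCM and was 21.9-fold (16.2 without NCM661 to 52.8 without NCM649) higher (log2 fold change 4.45 ± 0.75 (SE), edgeR adjusted p = 0.00242). Ccl4, an attractant of monocytes and T cells, had 107, 63.9 and 104 CPM in IM and 2.14, 0 and 7.63 CPM in NCM and was 26.7-fold (18.1 without NCM650 to 87.4 without NCM661) higher (log2 fold change 4.74, edgeR adjusted p = 0.00307). Pf4, platelet factor 4, passed but lost its call without control IM648, control IM659, control IM660, IM649, IM650, IM661, control NCM659, NCM649, NCM650 or NCM661 (edgeR adjusted p between 0.0547 and 0.132). The only chemokine tested with a fold change below 0 was Cxcl12, a chemokine made by endothelial and stromal cells, with 299, 499.7 and 137 CPM in IM and 632, 468 and 1327 CPM in NCM (log2 fold change -1.38, edgeR adjusted p = 0.228). Its level and the endothelial marker sum were both highest in NCM661 and lowest in IM661, and a link between them was not tested. Among 25 chemoattractant receptors, 8 were higher in IM and 1, S1pr5, in NCM. P2ry13, a receptor for extracellular ADP, had 36.02, 44.6 and 34.4 CPM in IM and 0, 0.147 and 1.598 CPM in NCM and was 57.02-fold (39.8 without NCM649 to 421 without NCM661) higher in IM (log2 fold change 5.83, edgeR adjusted p = 0.00151). Ccr1 had 78.4, 82.9 and 73.9 CPM in IM and 2.97, 0 and 2.75 CPM in NCM and was 40.3-fold higher (log2 fold change 5.33, edgeR adjusted p = 0.00714). P2ry12, its ADP-sensing relative among purinergic receptors, had 46.1, 52.6 and 32.9 CPM in IM and 0, 0 and 1.598 CPM in NCM and lost its call without NCM649 or NCM650 (edgeR adjusted p between 0.0516 and 0.06701). Cxcr4 overlapped at 180.5, 128 and 269.7 CPM in IM and 261, 272 and 167 CPM in NCM (log2 fold change -0.28, edgeR adjusted p = 0.763).

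Inflammatory cytokines and feedback genes of NF-kB, the transcription factor that induces many of them, were tested as 1 list. Of 28 members, 16 were higher in IM and 0 (1 without NCM661) in NCM, with a median of 2.04, and 23 showed no overlap with IM above, beside 16.0% of all genes. Tnf had 153, 126 and 237 CPM in IM and 16.8, 9.55 and 10.4 CPM in NCM and was 14.1-fold higher (log2 fold change 3.82 ± 0.34 (SE), edgeR adjusted p = 2.32e-05). Il10, an anti-inflammatory cytokine, had 66.9, 47.4 and 63.2 CPM in IM and 3.2998, 0.588 and 1.33 CPM in NCM and was 34.3-fold (26.1 without NCM650 to 58.4 without NCM649) higher (log2 fold change 5.10, edgeR adjusted p = 4.27e-04). Both an inflammatory and a restraining cytokine were thus higher in the same IM libraries. Each library is a pool of cells, so expression of both by 1 cell was not measured. Il1a and Tnfsf9, the ligand 4-1BBL, were 21.98-fold and 19.4-fold (10.6 without IM661 to 23.9 without IM649) higher (edgeR adjusted p = 0.00586 and 0.00139). Il1b overlapped at 466, 474 and 923 CPM in IM and 337, 511 and 173 CPM in NCM (log2 fold change 0.87, edgeR adjusted p = 0.247), with NCM661 the lowest. Nfkbiz, an inducible NF-kB cofactor, overlapped at 1064, 952 and 1661 CPM in IM and 1175, 998 and 383 CPM in NCM (log2 fold change 0.52, edgeR adjusted p = 0.553).

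Toll-like receptors sense microbial products. Of 21 genes of these receptors, their co-receptors and signalling partners, 6 were higher in IM and 0 (2 without NCM661) in NCM. Cd14, the co-receptor for lipopolysaccharide, had 394, 372 and 466 CPM in IM and 54.1, 73.8 and 20.9 CPM in NCM and was 8.298-fold higher (log2 fold change 3.05 ± 0.44 (SE), edgeR adjusted p = 6.85e-04). Tlr5, the flagellin receptor, had 57.3, 32.9 and 26.7 CPM in IM and 0, 0 and 0.976 CPM in NCM (log2 fold change 6.65, edgeR adjusted p = 0.0105, a fold of 100.5, 69.7 without NCM650 to 2808 without NCM661). Without NCM661 no NCM count of Tlr5 remained, so 2808 is a fitted value against 0 and does not measure a size. Unc93b1, which escorts nucleic-acid-sensing receptors to endosomes, was 6.65-fold higher (edgeR adjusted p = 0.00344). Tlr4 and Tlr9 passed, but lost their calls without IM649, IM650 or NCM649 (edgeR adjusted p between 0.0736 and 0.0891) and without control IM648, control IM659, control IM660, IM649 or IM661 (edgeR adjusted p between 0.05104 and 0.125). Tlr7 overlapped at 288, 318 and 209 CPM in IM and 278, 230.1 and 106 CPM in NCM (log2 fold change 0.41, edgeR adjusted p = 0.594). Immediate early genes, which respond within minutes to stimulation, were counted in 1 list with stress genes. Of its 28 members, 10 were higher in IM and 0 (3 without NCM661) in NCM. Egr1 had 1152, 1099 and 1314 CPM in IM and 234, 336 and 556 CPM in NCM and was 3.16-fold higher (log2 fold change 1.66, edgeR adjusted p = 0.00323). Junb was 3.75-fold higher (edgeR adjusted p = 0.00225), and Fosb passed but lost its call without NCM650 (edgeR adjusted p = 0.0525).

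**Figure D4:**
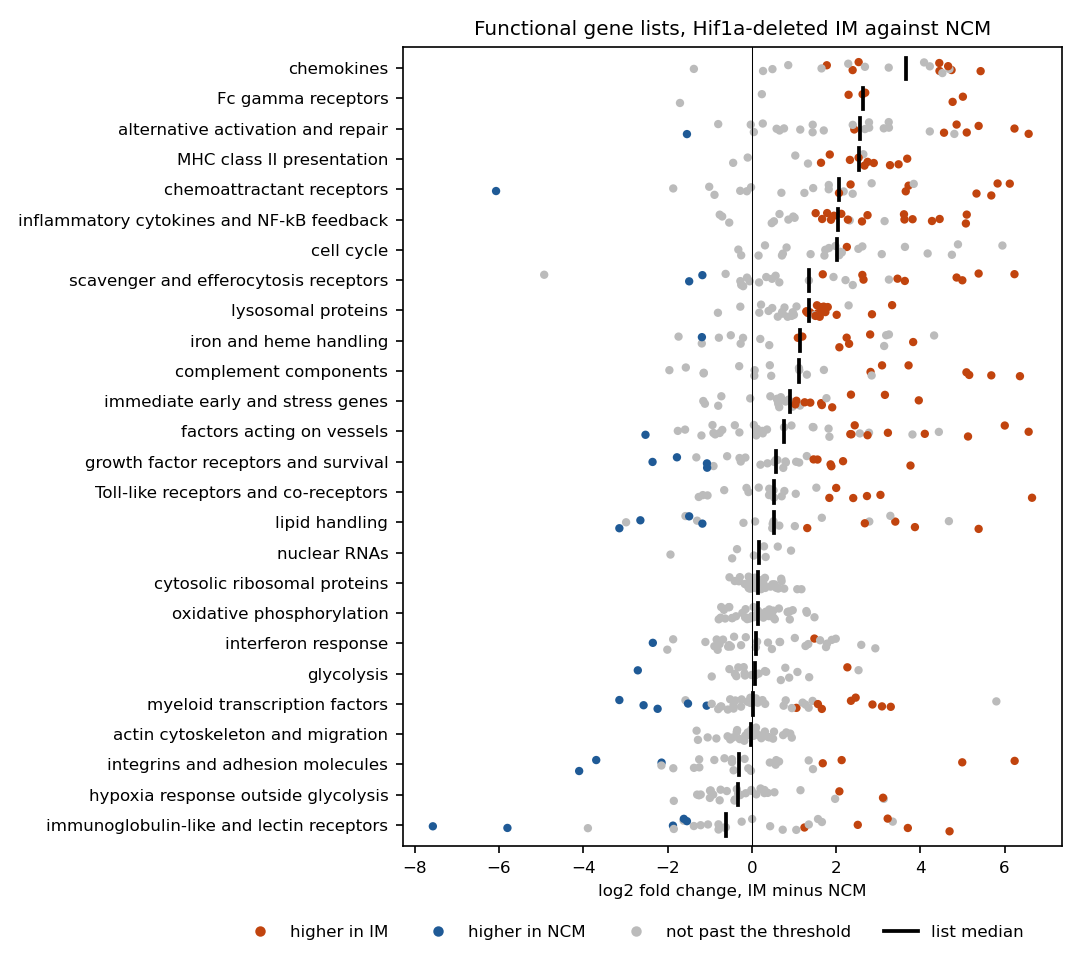
Log2 fold change of IM minus NCM for the members of 26 functional gene lists in the Hif1a-deleted libraries, 1 point per gene with counts in both groups, coloured where past the threshold, and a black bar at the median of all tested members. Chemokines have the highest median at 3.67, and lists such as glycolysis (0.07) and oxidative phosphorylation (0.14) centre near 0.

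Adhesion molecules passed in both directions. Of 26 members, 4 (2 without IM661) were higher in IM and 3 (5 without NCM661) in NCM. NCM had more Itgal and Spn, given above, and more Itga4, the alpha chain of the VCAM-1-binding integrin VLA-4, with 336, 375 and 266 CPM in IM and 1965, 1899.7 and 447 CPM in NCM (log2 fold change -2.14, edgeR adjusted p = 0.00778). Icam1 and Vcam1, which encode ligands of LFA-1 and VLA-4, lay in the other direction. Other ligands of these integrins are not given here. Icam1 had 204, 161 and 331 CPM in IM and 34.3, 31.2 and 92.8 CPM in NCM and was 4.38-fold (3.22 without IM661 to 7.09 without NCM661) higher (log2 fold change 2.13 ± 0.40 (SE), edgeR adjusted p = 0.00463). Vcam1 had 216, 233 and 109 CPM in IM and 0, 7.05 and 10.03 CPM in NCM. So for these 2 pairs the integrin chain was higher in NCM and the named ligand in IM. The Vcam1 call was lost without any 1 of the IM libraries of either genotype, or without NCM650 or NCM661, as given above. Icam1 and Itga4 lost theirs in a fit of only the 6 deleted libraries. Amica1, the junctional adhesion molecule-like protein, had 69.4, 85.8 and 128 CPM in IM and 0, 0 and 3.28 CPM in NCM and was 75.5-fold (52.04 without NCM650 to 6812 without NCM661) higher in IM (log2 fold change 6.24, edgeR adjusted p = 0.00176). Without NCM661 no NCM count of Amica1 remained, so 6812 is a fitted value against 0 and does not measure a size. Itgam, the CD11b chain, overlapped at 552, 576 and 922 CPM in IM and 528, 737 and 259 CPM in NCM (log2 fold change 0.43, edgeR adjusted p = 0.589), as did Cd44 at 1532, 1575 and 950.2 CPM in IM and 2579, 2411 and 489 CPM in NCM (log2 fold change -0.43, edgeR adjusted p = 0.724).

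Growth factor and cytokine receptors were counted in 1 list with survival genes, which also divided. Of its 27 members, 6 were higher in IM and 4 (1 without IM649, 2 without IM661 or NCM649, 7 without NCM661) in NCM. The 6 included the survival genes Bcl2a1b and Bcl2a1d, which lost their calls in 10 and 9 of the 12 fits that left out 1 library. Csf2rb, the shared beta chain of the GM-CSF receptor, and its close copy Csf2rb2, whose reads may be split between them, were 4.48-fold and 13.6-fold higher in IM (edgeR adjusted p = 0.00175 and 7.03e-05). Il10rb, a chain of the interleukin-10 receptor, had 159.8, 179 and 196 CPM in IM and 35.3, 50.3 and 60.6 CPM in NCM (log2 fold change 1.87, edgeR adjusted p = 8.10e-04). Il17ra, the interleukin-17 receptor, had 74.2, 38.4 and 63.1 CPM in IM and 415, 373 and 113 CPM in NCM and was 5.12-fold higher in NCM (log2 fold change -2.36, edgeR adjusted p = 0.00316). Csf1r, on which both cell types depend, had 969, 931 and 1450.1 CPM in IM and 837, 817 and 272 CPM in NCM and did not pass (log2 fold change 0.80, edgeR adjusted p = 0.265). Immunoglobulin-like and lectin receptors counted 5 (2 without control IM648, control IM659, control IM660, IM649 or IM661) higher in IM and 5 (2 without IM661, NCM649 or NCM650, 3 without IM650, 11 without NCM661) in NCM among 29. Cd33, a sialic acid receptor, had 227, 219 and 247 CPM in IM and 2.31, 11.02 and 13.1 CPM in NCM and was 25.9-fold higher in IM (log2 fold change 4.69 ± 0.46 (SE), edgeR adjusted p = 4.99e-05). Lilrb4, an inhibitory receptor with close relatives, had 893, 613 and 1348 CPM in IM and 174, 227 and 98.97 CPM in NCM and was 5.71-fold higher in IM (log2 fold change 2.51, edgeR adjusted p = 5.41e-04). Cd300e and Treml4 marked NCM, as given above.

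Transcription factors of the myeloid lineage separated the cell types in both directions, 8 of 40 higher in IM and 5 (1 without IM650, 2 without IM661 or NCM649, 3 without IM649 or NCM650, 8 without NCM661) in NCM. Maf, a leucine zipper factor of macrophages, had 157, 155 and 132 CPM in IM and 3.13, 40.1 and 9.05 CPM in NCM and lost its call without IM649 (edgeR adjusted p = 0.0527). Cebpa, a factor of early myeloid cells, had 106, 73.4 and 159.8 CPM in IM and 12.4, 18.2 and 15.9 CPM in NCM and was 7.28-fold higher in IM (log2 fold change 2.86 ± 0.34 (SE), edgeR adjusted p = 1.61e-04). Nr4a3, a relative of Nr4a1, had 189, 214 and 395 CPM in IM and 38.9, 71.3 and 34.3 CPM in NCM and was 5.52-fold higher in IM (log2 fold change 2.46, edgeR adjusted p = 0.00154). Egr2 was 5.11-fold (3.88 without IM661 to 7.67 without NCM650) higher in IM (edgeR adjusted p = 0.00307). In NCM, the repressor Bcl6 had 45.5, 29.2 and 22.5 CPM in IM and 294, 241 and 42.7 CPM in NCM and was 5.94-fold higher (log2 fold change -2.57, edgeR adjusted p = 0.00789), with NCM661 below IM649. Ets1 and Klf2 are also endothelial factors, and both were higher in NCM, where endothelial marker sums were higher. The part of endothelial cells in this was not tested. Klf2 had 188, 146 and 118 CPM in IM and 331, 252 and 368 CPM in NCM and Ets1 124, 131 and 64.01 CPM in IM and 337, 178 and 396 CPM in NCM, and their calls were lost without IM650 or IM661 (edgeR adjusted p between 0.0654 and 0.0777) and without control IM648, IM649, IM650, IM661, control NCM648, control NCM657, control NCM659, NCM649 or NCM661 (edgeR adjusted p between 0.0509 and 0.135). Zeb2 overlapped at 733, 907 and 593 CPM in IM and 1391, 1061 and 478 CPM in NCM (log2 fold change -0.39, edgeR adjusted p = 0.625).

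HIF-1 is known to switch on glycolytic and other genes of the hypoxia response, and the counts below stand beside 4.57% of all genes that passed. Of 23 glycolytic genes, 1 (2 without NCM650) was higher in IM and 1 in NCM, with a median of 0.07. Hk2, which commits glucose to the pathway, had 144, 169 and 171 CPM in IM and 17.7, 61.7 and 21.1 CPM in NCM and was 4.82-fold (3.89 without NCM649 to 8.28 without NCM650) higher in IM (log2 fold change 2.27 ± 0.44 (SE), edgeR adjusted p = 0.005805). Slc16a3, the lactate exporter MCT4, had 8.52, 7.37 and 10.8 CPM in IM and 54.1, 94.04 and 26.5 CPM in NCM and was 6.53-fold higher in NCM (log2 fold change -2.71 ± 0.45 (SE), edgeR adjusted p = 0.00205). Hk2 and Slc16a3, the only 2 of the 23 that passed, lay in opposite directions, without overlap. Both lost their calls in a fit of only the 6 deleted libraries. Pkm2, the symbol the files use for pyruvate kinase M, had 185, 165 and 295 CPM in IM and 357, 255 and 240.4 CPM in NCM (log2 fold change -0.40, edgeR adjusted p = 0.505), and Pfkfb3, a regulator of phosphofructokinase, 233, 208 and 199.6 CPM in IM and 87.8, 172 and 109 CPM in NCM (log2 fold change 0.79, edgeR adjusted p = 0.199). Of 33 further hypoxia genes, 2 (1 without IM649, IM650, IM661 or NCM650) were higher in IM and 0 (1 without NCM661) in NCM, and the list median was -0.33. Hmox1, which degrades heme and also responds to oxidative stress, had 241, 194 and 231 CPM in IM and 73.4, 49.5 and 34.97 CPM in NCM and was 4.22-fold higher (log2 fold change 2.08 ± 0.38 (SE), edgeR adjusted p = 0.00413). Slc7a11, the cystine transporter, had 69.7, 63.9 and 30.04 CPM in IM and 14.4, 3.67 and 1.07 CPM in NCM and lost its call without IM649, IM650, IM661 or NCM650 (edgeR adjusted p between 0.0542 and 0.118). Epas1, which encodes HIF-2 alpha and is abundant in endothelium, had 961, 1702 and 386 CPM in IM and 1666, 1571 and 3832 CPM in NCM (log2 fold change -1.21, edgeR adjusted p = 0.3504) and was highest in NCM661. Of 42 oxidative phosphorylation genes, 0 (2 without NCM661) were higher in IM and 0 in NCM (median 0.14). Interferon response genes counted 1 (0 without control IM648, control IM659, control IM660, IM649, IM650, IM661, control NCM648 or NCM649, 6 without NCM661) of 32 higher in IM and 1 (0 without IM649, IM650, IM661, control NCM657 or NCM650) higher in NCM. These were Gbp3 and Zbp1, respectively, with Gbp3 losing its call without control IM648, control IM659, control IM660, IM649, IM650, IM661, control NCM648, NCM649 or NCM650 (edgeR adjusted p between 0.0527 and 0.375) and Zbp1 without IM649, IM650, IM661, control NCM657 or NCM650 (edgeR adjusted p between 0.0566 and 0.146).

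Factors that act on vessels, of interest in pulmonary hypertension, were mostly IM genes among those that passed. Of 37 tested, 9 were higher in IM and 1 (3 without NCM661), Ace, in NCM. Plau, the urokinase-type plasminogen activator, had 161, 112 and 446 CPM in IM and 20.95, 7.93 and 12.96 CPM in NCM and was 17.2-fold (9.09 without IM661 to 22.8 without NCM649) higher in IM (log2 fold change 4.11 ± 0.57 (SE), edgeR adjusted p = 5.86e-04). Igf1 is given above. Pdgfc, a growth factor for fibroblasts and smooth muscle, had 39.6, 31.97 and 29.2 CPM in IM and 0, 0.441 and 0.976 CPM in NCM and lost its call without NCM650 (edgeR adjusted p = 0.0671). Pgf, placental growth factor, had 31.3, 28.2 and 102 CPM in IM and 0, 0 and 4.26 CPM in NCM and lost its call without control IM648, control IM659, IM649, IM661 or NCM650 (edgeR adjusted p between 0.0526 and 0.139). Thbs1, thrombospondin-1, overlapped at 300.1, 185 and 297 CPM in IM and 262, 388 and 106 CPM in NCM (log2 fold change 0.05, edgeR adjusted p = 0.981), and so did Bmpr2, the receptor gene mutated in heritable pulmonary hypertension, at 410.3, 759 and 185 CPM in IM and 656, 744 and 1148 CPM in NCM (log2 fold change -0.91, edgeR adjusted p = 0.305).

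Macrophages recycle iron from engulfed red cells. Of 20 genes listed under iron and heme handling, 7 (4 without IM661) were higher in IM and 1 (0 without IM649, 2 without NCM661) in NCM. The 1 in NCM was Hpgd, which encodes a prostaglandin-degrading enzyme and is not itself an iron or heme gene. Its call was lost without IM649 (edgeR adjusted p = 0.0741). Fth1, the ferritin heavy chain, whose reads may be shared with processed copies elsewhere in the genome, had 1939, 1787 and 2361 CPM in IM and 314, 478 and 437 CPM in NCM and was 4.95-fold higher (log2 fold change 2.31 ± 0.24 (SE), edgeR adjusted p = 6.51e-05). Slc11a2, the iron transporter DMT1, had 99.9, 115 and 67.5 CPM in IM and 5.61, 1.18 and 12.8 CPM in NCM (log2 fold change 3.83, edgeR adjusted p = 0.00219, a fold of 14.2, 10.1 without NCM650 to 27.9 without NCM661), and Trf, transferrin, had 563, 401 and 479.9 CPM in IM and 15.8, 107 and 82.7 CPM in NCM (log2 fold change 2.81, edgeR adjusted p = 0.00651). Carrier, transporter and store were thus each higher in IM. Slc11a1, the phagosomal metal transporter, overlapped at 74.5, 57.8 and 110.2 CPM in IM and 103, 258 and 56.3 CPM in NCM (log2 fold change -0.78, edgeR adjusted p = 0.411). Among 28 genes of alternative activation and repair, 7 were higher in IM and 1 in NCM. Mrc1, Igf1, Il10 and Chi3l3 are given above. The exception was Tgm2, a protein-crosslinking transglutaminase, with 169, 176 and 120.03 CPM in IM and 485, 497 and 373 CPM in NCM, which was 2.91-fold higher in NCM (log2 fold change -1.54 ± 0.32 (SE), edgeR adjusted p = 0.00887).

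The same cell types were also compared in the Cre-negative animals. That comparison uses other libraries but the same fit, and 1066 genes passed (7.48%), with 401 higher in IM (2.81%) and 665 higher in NCM (4.67%). That count was 504, 528, 599 and 533 without control IM648, control IM659, control IM660 and control NCM648, respectively, 1768 in DESeq2, and 28 with the share of reads outside exons as a covariate. Of the 459 genes higher in deleted IM, 241 were also higher in control IM (52.5% of the deleted and 60.1% of the control list). Of the 193 genes higher in deleted NCM, 166 were also higher in control NCM (86.0% of the deleted and 24.96% of the control list). No gene passed in opposite directions, and 436 of the 459 and 190 of the 193 had the same sign in controls. Across the genes that passed in deleted libraries, Pearson's r between the 2 sets of fold changes was 0.905, and across all tested genes 0.394. These are descriptions over genes, which share libraries and are not independent.

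A direct test of whether the cell type difference itself differed between genotypes called no gene in edgeR (0.00%), with 1271 genes at an unadjusted p under 0.05 and a smallest adjusted p of 0.139. DESeq2 called 62. In edgeR, 34 genes were called without NCM661 and 1 without NCM649. Libraries of the genotypes also differed in composition. Reads outside exons made up 38.5% to 44.2% in control IM, against 59.2% to 69.8% in deleted IM, and 58.1% to 66.8% in control NCM, against 55.1% to 72.7% in deleted NCM. Summed endothelial markers were 1233 to 3618 CPM in control NCM, against 4385 to 11269 CPM in deleted NCM. The part of either in the difference was not tested. The gene with the smallest p was C5ar1. It had 339, 326 and 311 CPM in control IM and 111, 139.6 and 98.1 CPM in control NCM, so the log2 fold change was 1.48 in controls and 3.72 in deleted libraries, a difference of 2.24 ± 0.35 (SE), edgeR adjusted p = 0.139. Tnf had 412, 323 and 242 CPM in control IM and 119, 97.98 and 95.6 CPM in control NCM, a difference of 2.17 ± 0.44 (SE), edgeR adjusted p = 0.279. For both genes the deleted NCM libraries lay below all control NCM libraries, and the deleted IM libraries lay below all control IM libraries. The inflammatory list as a whole had 5 members higher in control IM and 3 higher in control NCM, with a median of 0.29, beside 16, 0 and 2.04 in deleted libraries. For MHC class II the same values lay closer together, with 9 and 10 members higher in IM and medians of 2.56 and 2.53. Hk2 had a log2 fold change of 0.59 in controls and 2.27 in deleted libraries, a difference of 1.68 ± 0.59 (SE), edgeR adjusted p = 0.474, whereas Slc16a3 had -3.62 and -2.71, a difference of 0.91 ± 0.60 (SE), edgeR adjusted p = 0.703. Neither difference passed.

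**Figure D5:**
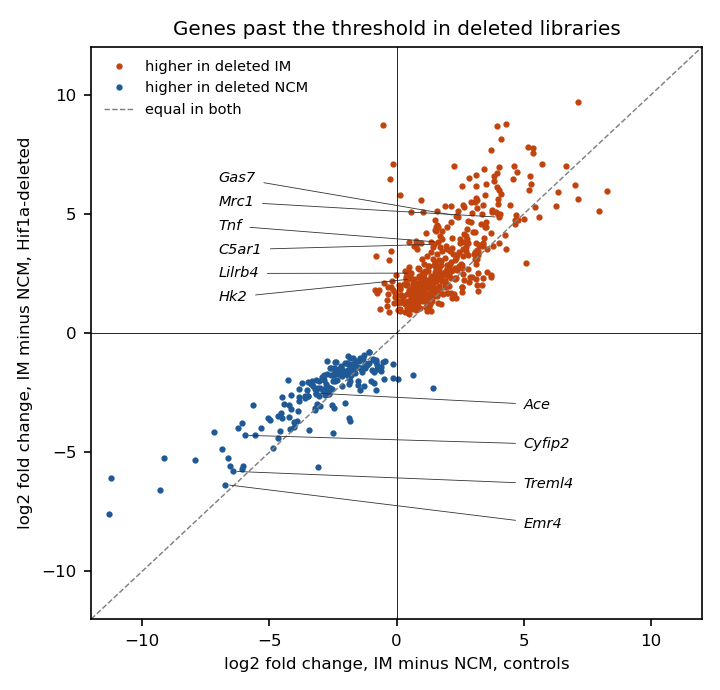
Log2 fold change of IM minus NCM in the Hif1a-deleted libraries (vertical) against the same in the Cre-negative controls (horizontal) for 639 of the 652 genes that passed in deleted libraries, those with counts in all 4 groups. The dashed line marks equal fold changes, and C5ar1 and Tnf lie above it at 3.72 and 3.82 against 1.48 and 1.64 in controls.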

How the data were processed

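The authors deposited 1 table of raw read counts per gene for each of 12 libraries. The tools that the submitters' processing notes name are HTSeq 0.6.0, TopHat2 2.1.1 and cutadapt 1.12, with the builds GRCm38 and mm10. Whether counting used strand is not stated there. Each table holds 26608 genes and 5 summary rows, which were left out and made up 58.3% to 74.1% of all entries in the deleted libraries. No 2 tables were identical. Genes were tested with edgeR 4.0.16 (R 4.3.3, TMM, filterByExpr with a minimum count of 10, robust quasi-likelihood fit of 4 group means) with Benjamini-Hochberg adjustment over 14254 genes and a threshold of 0.05, after the procedure was checked on simulated data. The common biological coefficient of variation was 0.782. Depth limits what can be seen in rare transcripts: a group at 0 was given a floor of 3 counts over the group, and floors cover counting error only. No floor was used for folds in the fits that left out 1 library. DESeq2 1.42.0, other scalings and filters, a covariate, a replicate block and leaving out each library were tried as alternatives.

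Genes were named by rules: the 12 with the largest folds in each direction that averaged a log2 CPM of 4 or more, passed and showed no overlap; from each of 38 lists (945 entries, 910 tested) up to 5 members that passed in each direction and 2 that did not; and fixed markers. A few genes that the rules name are not reported here. Cd3e, Sfpi1 and Siglec5 were named after their values were seen. Members and lists were chosen with earlier results of these data known. List members that were not tested fell below the count filter or were not matched by symbol. Promoters came from RefSeq (GRCm38.p6), matched by symbol. Figures used matplotlib 3.10.9.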

Additional observations from a re-analysis of the deposited data

How the results depend on the processing

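All 652 genes that passed kept their direction in every fit that tested them. DESeq2 called 1228 genes between the deleted cell types (782 higher in IM, 446 in NCM), a fit of only the 6 deleted libraries 228 (179 and 49), a replicate block 397 (303 and 94), and the block in only the 6 libraries 266 (213 and 53). Fits leaving out 1 library gave 346 (without IM661) to 1709 (without NCM661), with 237 to 1217 higher in IM and 97 (without IM649) to 492 higher in NCM. The share higher in IM was 70.4%, and 62.3% without a filter to 80.1% with the block in 6 libraries. RLE size factors, no filter, a minimum count of 30 and the non-exonic share as a covariate gave 629, 660, 653 and 907. Over all genes the median log2 difference, 0.14, ran from -0.01 with a minimum count of 30 to 0.47 with the block, and was 0.00147 without IM661 and 0.38 without NCM661. The labels do not say whether the same number in both cell types marks the same animal. Deviations of libraries with the same number correlated at 0.01, -0.05 and -0.07, and those with different numbers between -0.03 and 0.09. With 3 libraries per group, such values cannot exclude pairing, and the block is given as an alternative.

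For the difference between genotypes DESeq2 called 62 genes, and fits without 1 library 0 to 34. For the control comparison DESeq2 called 1768, the replicate block 289, the covariate 28, and fits without 1 library 504 (without control IM648) to 1525. The difference in non-exonic share, IM minus NCM, was -1.34 percentage points and ranged from -7.06 to 1.71 without 1 library, turning positive without IM661 (1.69), NCM649 (1.71) or NCM650 (1.33). The cause of these shifts was not tested.

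Of the named genes that held without each library, C1qa, C1qb, Ccr1, Gadd45b and Il1a lost the call without a filter. In only the 6 libraries it was lost by Bcl6, Ccl4, Csf2rb, Egr1, Egr2, Fcgr1, Gadd45b, Grn, Hk2, Icam1, Ifitm6, Il17ra, Itga4, Junb, S1pr5, Slc16a3, Trem2, Trf and Unc93b1, and with the block there also by Atp6v1a and Eno3. With the block in all libraries it was lost by C1qa, Ccr1, Ifitm6 and S1pr5. No named gene that passed changed direction. The limits are 3 libraries per group of about 250 cells, a lane that differs between the cell types, and NCM661.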

Other observations

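Some gene groups outside the comparison above were counted too, beside 4.57% of all genes that passed in edgeR. Of 24 cell cycle genes, 1 (0 without IM649 or IM661, 2 without control NCM648, 6 without NCM661) was higher in IM and 0 in NCM, although the median was 2.03 (log2). Mki67, a marker of dividing cells, had 624, 377 and 539.8 CPM in IM and 40.4, 222 and 60.8 CPM in NCM and was the gene that passed (log2 fold change 2.25, edgeR adjusted p = 0.0155, a fold of 4.77, 3.63 without NCM649 to 10.1 without NCM650), and its call was lost without IM649 or IM661 (edgeR adjusted p between 0.06101 and 0.0651). Of 31 genes of the actin cytoskeleton, 0 (1 without IM650 or NCM649) were higher in IM and 0 (1 without control IM659, IM661, NCM649 or NCM650, 4 without NCM661) in NCM. Of 38 cytosolic ribosomal proteins, 0 (3 without NCM661) were higher in IM and 0 in NCM, and none of 8 nuclear RNAs passed. Their medians were -0.01, 0.15 and 0.17 beside 0.14 for all genes. Malat1, a nuclear long noncoding RNA, took 4.34% to 4.57% of gene counts in IM and 3.498% to 4.45% in NCM.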
